A study of Mus musculus with 8 samples.

Results

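The CXC chemokines Cxcl1, Cxcl2, Cxcl3, Cxcl9, Cxcl10, Cxcl12 and Cxcl16 and the chemokine receptors Cxcr2, Cxcr4 and Cxcr6 were followed in single mouse kidney cells after ischemia-reperfusion injury (IRI). They were picked by symbol as signals of neutrophil and lymphocyte recruitment, and are 10 of the 57010 genes counted. All mice were male and of the C57BL/6 strain. The control pool came from untouched kidneys, and the other mice had IRI of the left kidney and received either DMSO vehicle or entospletinib (GS-9973), a small-molecule inhibitor of the kinase SYK. Kidneys were taken on day 1, 7 or 14 following IRI, which gave 7 conditions (control, vehicle at 3 days and entospletinib at 3 days). Entospletinib was injected before IRI and then repeatedly, so that the day 1 mice had received the first dose alone. No control mice received entospletinib, and no group had sham surgery without ischemia. Cells of 3 mice were pooled per condition and sorted for live leukocytes before barcoding, so a condition is 1 pool. A comparison of single conditions therefore has no replicate check and no test.

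CXC chemokines are small secreted proteins that bind G protein-coupled receptors and draw leukocytes along a gradient. Cxcl1, Cxcl2 and Cxcl3 bind Cxcr2, the main chemotactic receptor of neutrophils, and are induced by NF-kappaB in macrophages, neutrophils and epithelium. Cxcl9 and Cxcl10 are interferon-induced and bind Cxcr3 on activated T cells and NK cells. Cxcl12, made by stromal and endothelial cells, binds Cxcr4, which retains leukocytes in the bone marrow and guides B cells. Cxcl16 is made as a membrane protein that can be shed by proteases, and binds Cxcr6 on T cells and NKT cells. In the injured kidney the first of these systems is known for early neutrophil entry.

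Of 120281 barcodes, 79389 cells with 238942003 counts were kept. They were 10599 cells in the control, 20571, 5806 and 16530 in vehicle at days 1, 7 and 14, and 9966, 6688 and 9229 in entospletinib. The total counts of a condition ranged from 11842327 (entospletinib day 14, with a median of 960 counts per cell) to 71691915 (vehicle day 1). Cells were split over 8 sublibraries that each held every condition, and an SD given here is over those sublibraries and measures technical error alone. Levels are the counts of a gene scaled to a common total of all counts in the named cells (CPM). In the control, sublibraries 5 and 7 stood apart before filtering, with median mitochondrial shares of 45.4% and 40.1%, but gave 1323 and 1357 kept cells, near the other sublibraries. Leaving out either of them changed none of the counts of members over control given here. Across the 8 sublibraries, 13712 well combinations occurred in more than 1, as the barcoding design allows, and were treated as separate cells. A limit on ribosomal protein counts removed 29.0% and 24.0% of entospletinib cells at days 1 and 14, against 8.53% and 4.23% of vehicle cells. Its part in the results was not tested. Without it, 4 recomputed counts of members differing by 2-fold or more moved and 56 did not, and not all of these are named.

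The genes of 5 ligands lie on mouse chromosome 5 (mm10), with Cxcl3 at chr5:90786103-90789600, Cxcl1 at chr5:90891241-90893115 and Cxcl2 at chr5:90903871-90905938, all on the plus strand, and Cxcl10 at chr5:92346638-92348889 and Cxcl9 at chr5:92321347-92328079 on the minus strand. The 3 Cxcr2 ligands were lower together in entospletinib at day 7, as given further on, so the stretch before each start that holds their NF-kappaB (kappaB) match is shown beside that of Cxcl10. Sequences are from RefSeq (GRCm38.p6), written along the gene's own strand, and capitals mark the matches to the kappaB consensus and, in Cxcl10, also to the interferon-stimulated response element. They are chr5:90891125-90891204 (plus) for Cxcl1, chr5:90903759-90903838 (plus) for Cxcl2, chr5:90785981-90786060 (plus) for Cxcl3 and chr5:92349020-92349119 (minus) for Cxcl10.
Cxcl1: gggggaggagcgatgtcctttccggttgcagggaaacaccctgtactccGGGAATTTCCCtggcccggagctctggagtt
Cxcl2: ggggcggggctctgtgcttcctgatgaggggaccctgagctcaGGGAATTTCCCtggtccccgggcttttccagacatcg
Cxcl3: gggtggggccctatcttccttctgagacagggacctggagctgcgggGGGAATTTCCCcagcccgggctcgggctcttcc
Cxcl10: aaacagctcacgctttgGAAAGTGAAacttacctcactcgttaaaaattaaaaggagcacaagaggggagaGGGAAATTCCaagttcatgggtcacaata

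The kappaB consensus was searched on both strands in windows of 300 bases (250 before and 50 after the start), and 2779 of 32851 promoters (8.46%) held it. Its form GGGAATTTCC, chosen because the promoters of Cxcl1, Cxcl2 and Cxcl3 share it, occurred in 29 promoters (0.0883%). Those of the 3 genes are among them by that choice, with the first base at positions −71, −97 and −73. The share is therefore no measure of how unusual their match is. Positions are counted from the RefSeq start of each gene, which is not the gene start given above for these 3 and lies inside the gene for Cxcl1 and Cxcl2, furthest for Cxcl2. In each of these 3 a reverse-strand match overlaps it 1 base further on. The core of the interferon-stimulated response element, GAAANNGAA, was in 2812 promoters (8.56%) and matched Cxcl9 and Cxcl10, and Cxcl10 also held the kappaB consensus, at −159 and in overlapping matches from −104. In Cxcl12, Cxcr2, Cxcr4 and Cxcr6 neither motif was in the window. These matches depend on the pattern. A looser kappaB pattern searched earlier, with 4 free positions, was in 6810 promoters (20.7%), Cxcl9 among them, and a longer interferon element core was in 1131 (3.44%) and matched Cxcl10 but not Cxcl9. For Cxcl16 no entry was matched, so 9 of 10 members were searched.

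Cxcl2, a neutrophil attractant, was the member with the most counts. Its level was 27.3 ± 4.45 CPM (SD, n = 8 sublibraries) in the control, 979 ± 63.6, 726 ± 70.4 and 164 ± 12.0 in vehicle at days 1, 7 and 14, and 549 ± 41.6, 61.3 ± 12.7 and 65.9 ± 11.8 in entospletinib. The control was the lowest of the 7 conditions, and entospletinib was below vehicle on each day without overlap of the sublibrary SDs. Cxcl3, a second ligand of Cxcr2, stood at 0.712 ± 0.418 CPM in the control, 59.0 ± 3.43, 52.7 ± 11.0 and 2.46 ± 0.706 in vehicle, and 11.0 ± 2.14, 1.64 ± 0.860 and 2.03 ± 1.11 in entospletinib. It was high in vehicle at days 1 and 7, and at day 14 the treatments overlapped. Cxcl1, the third ligand, reached 1.19 ± 0.60 CPM in the control, 5.70 ± 1.48, 17.3 ± 4.18 and 5.41 ± 1.5 in vehicle, and 4.56 ± 1.58, 2.14 ± 1.40 and 5.07 ± 5.32 in entospletinib. It was highest in vehicle at day 7, and the treatments overlapped at days 1 and 14. At day 14 in entospletinib, 10 cells held 60.0% of its counts. Cxcl2 and Cxcl3 share 126 of their 50-base transcript windows, 5.84% of those of Cxcl2 and 3.51% of those of Cxcl3, so some reads could have been counted for either.

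Cxcr2 (chr1:74153989-74161246, plus strand), the receptor of those ligands, stood at 6.27 ± 1.83 CPM in the control, 339 ± 20.3, 89.5 ± 6.15 and 46.5 ± 3.85 in vehicle and 203 ± 17.8, 12.9 ± 2.81 and 8.02 ± 2.62 in entospletinib. Vehicle exceeded entospletinib on each day, and entospletinib at day 14 overlapped the control. Neutrophil-like cells were 0.632% of kept cells in the control, 37.4%, 24.8% and 10.1% in vehicle and 21.5%, 1.69% and 0.531% in entospletinib, so on each day both their share and the Cxcr2 level were lower in entospletinib. Across days the order differed, since vehicle at day 7 had more of these cells than entospletinib at day 1 and a lower Cxcr2 level. In such a mixture, fewer cells of a type and less RNA per cell cannot be told apart from the summed level.

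**Figure D1:**
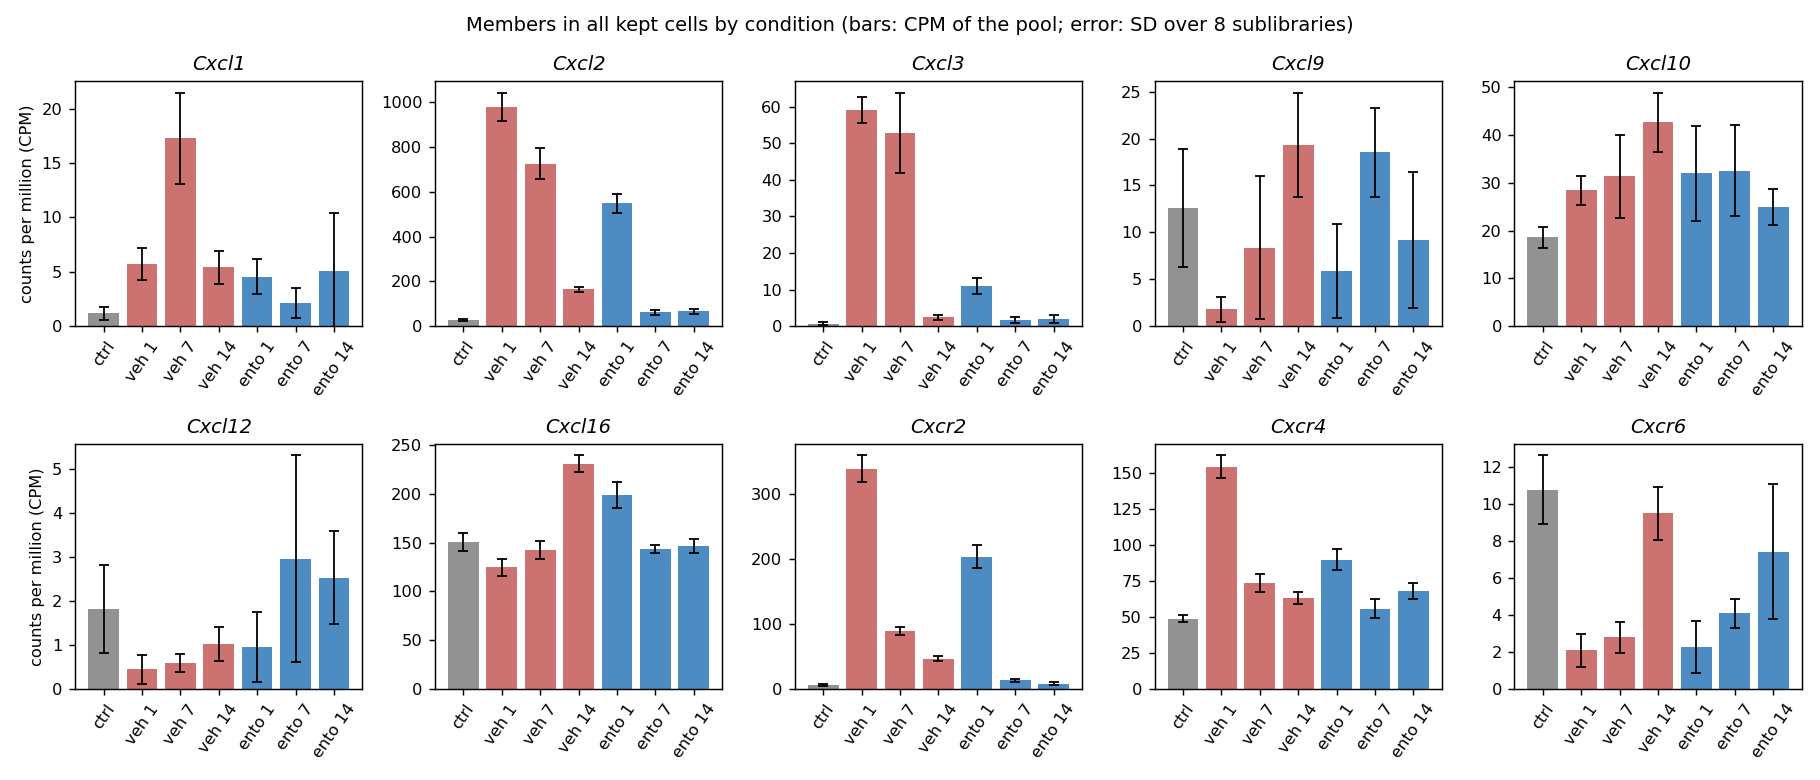
Level of each of the 10 members in all kept cells, in CPM, for the 7 conditions (bars, error bars the SD over 8 sublibraries, linear axes that start at 0). In the vehicle bars Cxcl2 stood at 979 CPM on day 1 and 164 on day 14, and in entospletinib at 61.3 on day 7.

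The interferon-induced ligands had another course. Cxcl9 stood at 12.6 ± 6.33 CPM in the control, 1.79 ± 1.34, 8.38 ± 7.61 and 19.3 ± 5.58 in vehicle and 5.83 ± 5.01, 18.5 ± 4.74 and 9.20 ± 7.25 in entospletinib. It was lowest in vehicle at day 1, and its spread between sublibraries was wide. The 10 cells with most Cxcl9 held 65.6% of its counts in vehicle at day 1, 63.2% at day 7 and 64.6% in entospletinib at day 1. Cxcl10 stood at 18.6 ± 2.20 CPM in the control, 28.4 ± 3.06, 31.4 ± 8.69 and 42.7 ± 6.22 in vehicle and 32.0 ± 9.94, 32.5 ± 9.53 and 25.0 ± 3.75 in entospletinib. The treatments overlapped at days 1 and 7 and did not at day 14, where vehicle was higher. An exon of Cxcl10 overlaps Art3 on the other strand, and one of Cxcl16 overlaps Zmynd15, which could add reads if strand was not used in counting.

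Cxcl12 (chr6:117168535-117181367, plus strand) was sparse after the sort for leukocytes, with 69 counts in the control, 32, 12 and 51 in vehicle and 24, 65 and 30 in entospletinib. Its level was 1.82 ± 0.995 CPM in the control, 0.446 ± 0.332, 0.588 ± 0.210 and 1.02 ± 0.389 in vehicle and 0.952 ± 0.788, 2.96 ± 2.35 and 2.53 ± 1.06 in entospletinib. Vehicle was below entospletinib on each day, with overlap of the SDs at days 1 and 7. Cxcl16 (chr11:70453983-70459984, minus strand) stood at 150.2 ± 9.15 CPM in the control, 124 ± 8.28, 143 ± 9.35 and 231 ± 8.63 in vehicle and 199 ± 13.7, 144 ± 3.85 and 146 ± 7.27 in entospletinib. It was higher in entospletinib at day 1 and higher in vehicle at day 14, and the day 7 values overlapped.

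Cxcr4 (chr1:128588199-128592293, minus strand), the receptor of Cxcl12, stood at 48.9 ± 2.26 CPM in the control, 154 ± 7.90, 73.7 ± 6.55 and 63.5 ± 4.17 in vehicle and 89.8 ± 7.26, 55.8 ± 6.79 and 68.1 ± 5.84 in entospletinib. Vehicle was higher at days 1 and 7, and at day 14 the treatments overlapped. Cxcr6 (chr9:123806475-123811760, plus strand), the receptor of Cxcl16, stood at 10.8 ± 1.86 CPM in the control, 2.09 ± 0.885, 2.79 ± 0.837 and 9.50 ± 1.46 in vehicle and 2.26 ± 1.40, 4.10 ± 0.786 and 7.43 ± 3.66 in entospletinib. It was low at days 1 and 7 in both treatments and near the control in vehicle at day 14.

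To compare conditions, ratios were taken relative to the median gene, since that median was shifted by −0.26, −0.41 and −0.15 (log2) in vehicle over control at days 1, 7 and 14 and by 0.11, 0.47 and 0.24 in entospletinib over vehicle. A member was counted when it differed by 2-fold or more. At day 1, 5 of 10 members were higher in vehicle than in the control (Cxcl1, Cxcl2, Cxcl3, Cxcr2 and Cxcr4), against 11.7% of the 15089 genes tested, and 3 were lower (Cxcl9, Cxcl12 and Cxcr6), against 15.3%. The relative log2 ratio was 5.42 for Cxcl2 (exact 95% counting interval 5.34 to 5.51), 6.63 for Cxcl3 (6.09 to 7.24) and 6.01 for Cxcr2 (5.83 to 6.20), each in the same direction in 8 of 8 sublibraries. It was −2.56 for Cxcl9 and −2.11 for Cxcr6. At day 7, 5 members were higher (Cxcl1, Cxcl2, Cxcl3, Cxcl10 and Cxcr2, against 7.80% of genes) and 2 were lower (Cxcl12 and Cxcr6, against 12.4%). The lower count was 1 without sublibrary 8. At day 14 the same 5 were higher (against 6.29% of genes) and 0 were lower (against 12.9%), with ratios of 2.74 for Cxcl2, 1.94 for Cxcl3 and 3.04 for Cxcr2. These 3 comparisons share the control pool.

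Cxcr2 and its ligands, which were lower, and Cxcl12, which was higher, differed most between treatments at day 7 in relative log2 ratio. Cxcl9, at day 1, and Cxcl10 and Cxcl16, at day 14, had their largest ratio on other days. At day 1, Cxcl3 alone of 9 members tested was lower by 2-fold (against 2.63% of genes), with a relative log2 ratio of −2.53 (−2.72 to −2.36), while Cxcl2 stood at −0.95 and Cxcr2 at −0.85. The count was 4 with cells of more than 500 genes alone and 3 without the ribosomal limit. Cxcl9 was higher at day 1 (1.59, in 6 of 8 sublibraries, against 2.37% of genes higher). At day 7, 4 of 10 members were lower (against 6.38%), at −3.48 (−3.95 to −3.04) for Cxcl1, −4.03 (−4.11 to −3.95) for Cxcl2, −5.47 (−6.00 to −5.00) for Cxcl3 and −3.26 (−3.45 to −3.08) for Cxcr2, all in 8 of 8 sublibraries. Those 4 are the ligands of Cxcr2 and the receptor itself. Cxcl12 was higher at day 7 (1.87, interval 0.96 to 2.89, against 12.5% of genes higher), and the count was 2 when cells were thinned to 500 counts and 2 without sublibrary 4. At day 14, Cxcl2 (−1.56), Cxcl9 (−1.31), Cxcl10 (−1.01) and Cxcr2 (−2.78) were lower (against 5.65%), while Cxcl3 stood at −0.52. Cxcl12 was higher at day 14 (1.07, against 12.9%), which was not so after TMM scaling, thinning, removal of the ribosomal limit or of the minimum CPM, or without sublibrary 2 or 5.

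Cells were then gated by marker genes into classes, each called like its cell type. The summed markers of a class, which the gate used, were 11.5-fold higher in macrophage-like cells than in the other classes and 44.6-fold higher in neutrophil-like cells. Of the kept cells, 11.5% were unassigned, 7.37% met 2 classes and 4.27% lay near a gate limit. The largest classes were macrophage-like (22031 cells), neutrophil-like (13185), monocyte-like (8055) and endothelial-cell-like (7205). Orders of level given next are of 1 gene across classes, over the 7 conditions summed, and classes were called separated when their sublibrary SDs did not overlap.

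Cxcr2 stood at 1449.5 ± 52.8 CPM in neutrophil-like cells, far above monocyte-like cells at 20.7 ± 3.45, and 86.9% of its 34163 counts lay in neutrophil-like cells. Detection was taken with cells thinned to 500 counts, which left out 933 kept cells with fewer (708 of them in entospletinib at day 14). Values before thinning are over all cells of a class. After thinning, 47.3% of neutrophil-like cells had a Cxcr2 count (74.4% before thinning, at a median of 1368 counts) against 0.173% of B-cell-like cells (1.07% before thinning, median 1504), a class that should largely lack it. With the conditions summed, the order for Cxcl2 was neutrophil-like (3146 ± 163 CPM), monocyte-like (389 ± 30.1) and macrophage-like (229 ± 17.1), each separated from the next, and below these no class was separated from its neighbour in the order. Of the 8055 monocyte-like cells 4971 came from vehicle at day 1, and within a condition macrophage-like cells had the higher Cxcl2 level of these 2 classes in 5 of 7 conditions, vehicle at day 1 included (678 against 456 CPM). Neutrophil-like cells held 58.5% of 110180 Cxcl2 counts, and thinned detection, over the same summed conditions, was 61.2% there, 11.7% in monocyte-like, 6.64% in macrophage-like and 1.39% in T-cell-like cells (78.7%, 32.7%, 18.2% and 5.53% before thinning, with a median of 2074 counts in T-cell-like cells). Cxcl3 stood at 152 ± 11.2 CPM in neutrophil-like, 38.9 ± 3.18 in monocyte-like, 9.62 ± 8.64 (14 counts) in Ccr7-positive dendritic-cell-like and 3.95 in macrophage-like cells, and within vehicle at day 1 at 44.6 in monocyte-like and 13.2 in macrophage-like cells. Cxcl1 was not separated between neutrophil-like (9.33 ± 2.48), Ccr7-positive dendritic-cell-like (8.25), proximal-tubule-like (7.58), macrophage-like (6.96) and monocyte-like cells (6.02), and 35.3% of its 1298 counts lay in macrophage-like cells.

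**Figure D2:**
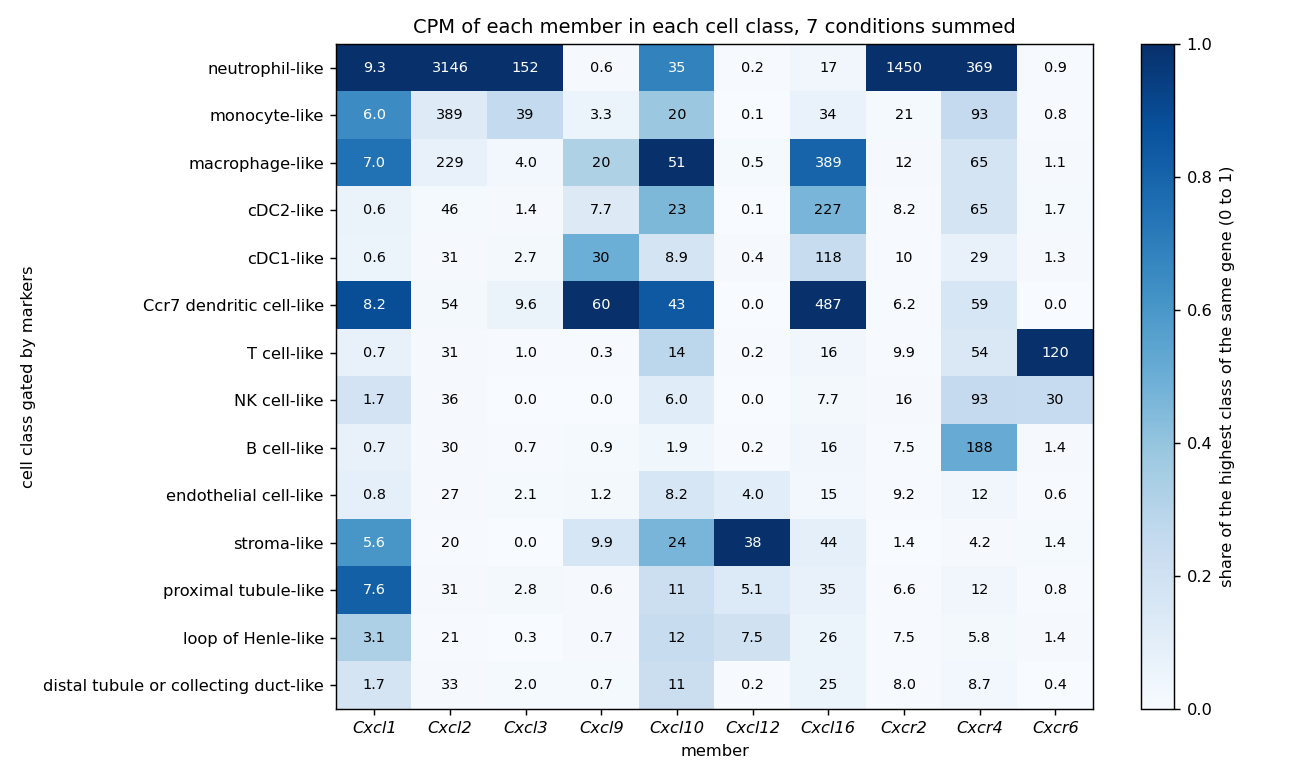
Level of each member (columns) in 14 cell classes (rows) in CPM with the 7 conditions summed, the colour giving the share of that member's highest class. Cxcr2 (1449.5 CPM) and Cxcr4 (369) were highest in neutrophil-like cells, Cxcr6 (120.2) in T-cell-like cells and Cxcl16 (487) in Ccr7-positive dendritic-cell-like cells.

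The other ligands lay elsewhere. Cxcl16 stood at 487 ± 80.9 CPM in Ccr7-positive dendritic-cell-like cells, 389 ± 9.06 in macrophage-like cells, 227 ± 27.1 in type 2 (cDC2-like) and 118 ± 17.6 in type 1 (cDC1-like) conventional dendritic cells. These were all separated with the conditions summed, and macrophage-like cells held 65.7% of the 38943 Cxcl16 counts. At day 1 its level in macrophage-like cells, given further on, was above the summed 487 CPM in both treatments. Its thinned detection was 16.9% in macrophage-like cells and 0.682% in neutrophil-like cells. Cxcl9 was 60.5 ± 49.3 CPM in Ccr7-positive dendritic-cell-like, 30.1 ± 16.4 in cDC1-like and 19.5 ± 7.64 in macrophage-like cells, which were not separated, with a thinned detection of 1.29% in cDC1-like, 0.592% in macrophage-like and 0.0230% in neutrophil-like cells. Cxcl10 was likewise not separated between macrophage-like (51.3 ± 9.80), Ccr7-positive dendritic-cell-like (43.3 ± 35.3) and neutrophil-like cells (35.0 ± 9.02). Cxcl12 was highest in stroma-like cells (38.1 ± 26.6 CPM from 27 counts in 137 cells). Below them, loop-of-Henle-like (7.47 ± 3.05), proximal-tubule-like (5.14 ± 2.95) and endothelial-cell-like cells (4.03 ± 2.31) were not separated.

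Among the receptors, Cxcr4 stood at 369 ± 14.9 CPM in neutrophil-like cells and 188 ± 21.3 in B-cell-like cells, which were separated with the conditions summed, with monocyte-like (93.5), NK-cell-like (92.8) and macrophage-like cells (64.9) below. Within a condition neutrophil-like cells had the higher Cxcr4 level of the first 2 classes in 6 of 7, the exception being vehicle at day 7 (183 ± 41.7 against 216 ± 86.9 CPM), where the SDs overlap. Its thinned detection was 16.1% in neutrophil-like, 8.61% in B-cell-like and 0.601% in endothelial-cell-like cells. Cxcr6 stood at 120.2 ± 17.6 CPM in T-cell-like cells and 29.8 ± 7.26 in NK-cell-like cells, and at 1.68 in the next class. T-cell-like cells held 54.2% of its 1325 counts, and its thinned detection was 5.78% there and 0.00766% in neutrophil-like cells. Per condition, Cxcr6 in T-cell-like cells was 172 ± 26.8 CPM in the control, 155 ± 81.0, 84.0 ± 65.9 and 103 ± 23.0 in vehicle and 83.0 ± 103, 90.8 ± 26.6 and 88.5 ± 61.4 in entospletinib. The sublibrary SDs of the 2 treatments overlapped on each day.

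Within neutrophil-like cells Cxcr2 stood at near levels in both treatments at day 1, while Cxcl3 was lower in entospletinib. Cxcr2 stood at 729.6 CPM in the control (67 cells), 1613, 681 and 842 in vehicle and 1724, 711 and 451 in entospletinib, where days 7 and 14 rest on 113 and 49 cells. Between treatments its relative log2 ratio stood at 0.14 on day 1, 0.01 (−0.25 to 0.26) on day 7 and −1.28 (−2.06 to −0.60) on day 14, and the last became 0.66 with a stricter gate. Cxcl2 stood at 383 CPM in the control, 3264, 3770 and 1704 in vehicle and 3323, 857 and 956 in entospletinib. The treatments were alike within their SDs at day 1 (0.07), and entospletinib was lower at day 7 (−2.19, interval −2.42 to −1.97) and day 14 (−1.22). Cxcl3 stood at 178, 226 and 29.5 CPM in vehicle and 65.0, 5.04 and 0 in entospletinib, the last 2 from 1 and 0 counts, and at 0 in the control, where 3 counts would be 28.1 CPM. At day 1 its ratio was −1.41 (−1.64 to −1.18, in 8 of 8 sublibraries), and at day 7 it was −5.54 with a counting interval of −10.84 to −3.05. Of the 6 members tested in this class at day 1, Cxcl3 alone was lower by 2-fold (against 1.67% of genes) and 0 were higher (against 1.87%).

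Within neutrophil-like cells thinned to 500 counts, a Cxcr2 count was found in 47.6% (exact 95% interval 46.5 to 48.7) of 7995 cells with Cxcl2 and in 46.8% (45.4 to 48.2) of those without. Cxcl3 was found in 7.98% (7.40 to 8.60) of cells with Cxcl2 and 2.21% (1.82 to 2.66) of those without. As a description over cells, the first pair of intervals overlaps and the second does not, and reads shared by Cxcl2 and Cxcl3 could add to the latter. Both pairs are over the conditions summed. Within a condition the order for Cxcr2 varied, at 29.5% against 25.7% in vehicle at day 7 and 30.0% against 34.0% at day 14. The intervals overlapped on both days.

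Monocyte-like cells differed in the same ligands. Cxcl2 stood at 22.5 CPM in the control, 456, 719 and 66.6 in vehicle and 189, 77.3 and 146 in entospletinib there. Entospletinib was lower at days 1 and 7 and higher at day 14, when it had 180 cells and a relative log2 ratio of 1.05 for Cxcl2. Cxcl3 at day 14 rested on 3 counts in entospletinib and 1 in vehicle. At day 1, Cxcl2 (−1.14) and Cxcl3 (−2.10) were the members lower by 2-fold of 6 tested (against 1.12% of genes), and 0 were higher (against 0.365%). At day 7, Cxcl1 (−5.14, from 2 and 101 counts), Cxcl2 (−3.60) and Cxcl3 (−4.60, from 6 and 209 counts) were lower of 7 tested (against 7.87%) and Cxcl9 was higher (2.75, from 33 and 7 counts in 5 of 8 sublibraries, against 5.52%).

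In macrophage-like cells, Cxcl2 stood at 48.2 ± 8.54 CPM in the control, 678 ± 104, 219 ± 47.5 and 129 ± 9.99 in vehicle and 426 ± 70.1, 88.8 ± 23.4 and 92.1 ± 18.7 in entospletinib. Each injured pool was above the control, and entospletinib was below vehicle on each day without overlap of the SDs. Over control at day 1, Cxcl2 (3.63) and Cxcr2 (2.14) were the members higher of 6 tested (against 7.85% of genes), and Cxcl9 (−2.25) was lower (against 6.79%). At days 7 and 14 Cxcl2 alone of 5 was higher, at 2.46 and 1.49 (against 4.20% and 3.63%), and 0 were lower (against 1.59% and 1.53%). Between treatments, 0 of 6 members passed 2-fold at day 1 (against 0.281% higher and 0.562% lower). At day 7 Cxcl2 alone of 5 was lower, at −1.64 with an interval of −1.77 to −1.5 (against 2.41%), and 0 were higher (against 0.435%). At day 14 Cxcl9 alone of 6 was lower, at −1.04 (against 1.86%), and 0 were higher (against 1.13%).

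Cxcl16, mostly a macrophage transcript here, stood at 337 CPM in macrophage-like cells of the control, 579, 259 and 356 in vehicle and 598, 285 and 320.0 in entospletinib. Day 1 was the highest in both treatments, and the relative log2 ratios between treatments were 0.12, −0.20 and −0.28. Cxcl9 in Ccr7-positive dendritic-cell-like cells rested on 11 counts in the control, 0, 2 and 8 in vehicle and 31, 29 and 7 in entospletinib, from 21 to 142 cells per condition. Cxcl12 in endothelial-cell-like cells rested on 7 counts in the control, 17, 2 and 1 in vehicle and 7, 37 and 10 in entospletinib. Cxcr4 in B-cell-like cells stood at 167 CPM in the control, 239, 216 and 157 in vehicle and 179, 229 and 137 in entospletinib.

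**Figure D3:**
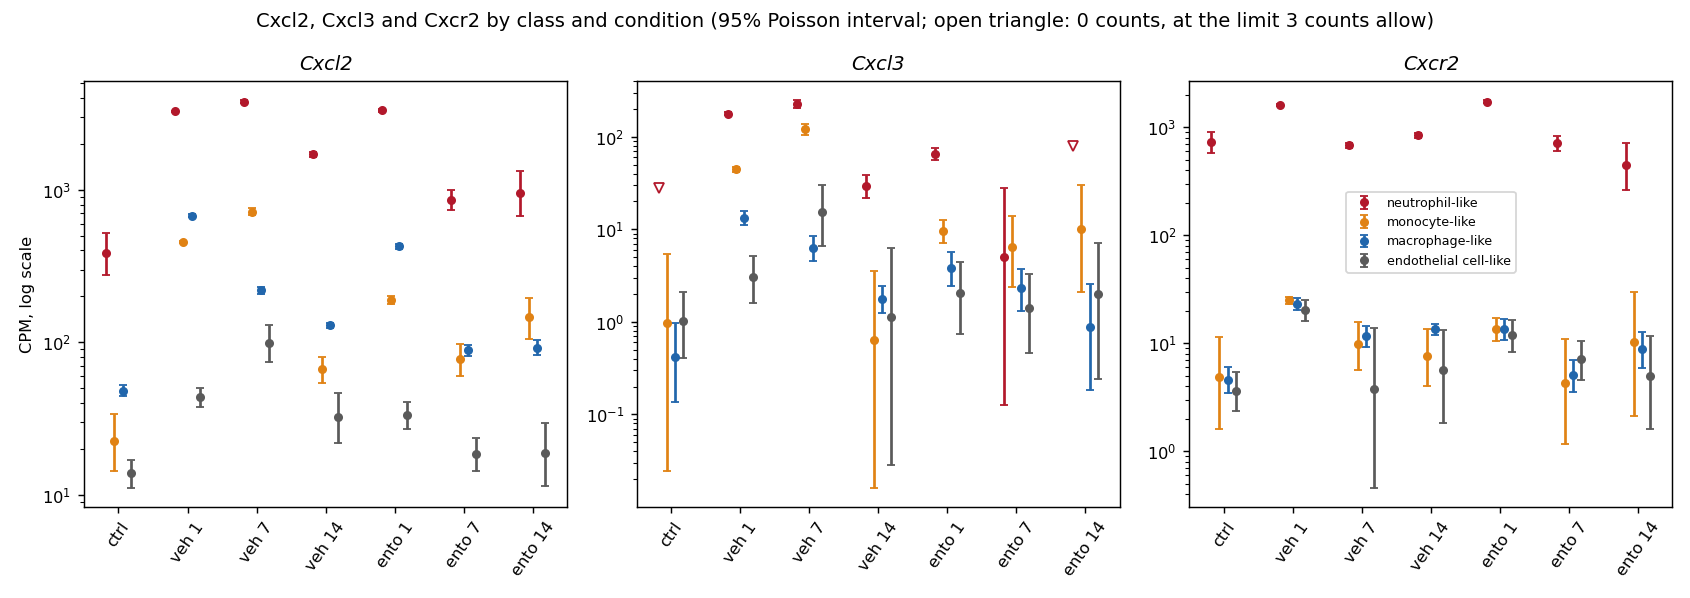
Cxcl2, Cxcl3 and Cxcr2 in neutrophil-, monocyte-, macrophage- and endothelial-cell-like cells for the 7 conditions, in CPM on a log axis, with exact 95% Poisson intervals. Open triangles mark 0 counts, drawn at the level 3 counts would give, and Cxcl2 in neutrophil-like cells was 3264 CPM in vehicle and 3323 in entospletinib at day 1.

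RNA of lysed neutrophils can be carried into other cells, and Cxcr2 gives a measure of it. Cxcl2 had 2.17 counts per Cxcr2 count in neutrophil-like cells, 19.1 in macrophage-like, 18.8 in monocyte-like and 2.96 in endothelial-cell-like cells. If every Cxcr2 count of macrophage-like cells had come from neutrophils, 46.6 of 678 CPM of Cxcl2 would have come with it in vehicle at day 1 and 64.1 of 219 at day 7. In endothelial-cell-like cells of vehicle at day 1 it would be 40.9 of 43.5 CPM, against 21.0 of 98.7 at day 7 and 11.4 of 32.6 at day 14 in vehicle and 1.91 of 13.8 in the control. Cxcl3 had 260 counts in macrophage-like cells. Of its level there, 2.54 of 13.2, 3.84 of 6.29 and 0.471 of 1.76 CPM would be carried in vehicle at days 1, 7 and 14. In entospletinib it would be 0.507 of 3.82, 0.036 of 2.32 and 0 of 0.880, where the day 7 value rests on a single neutrophil-like Cxcl3 count. All 8 neutrophil markers were met in macrophage-like cells, with a summed level of 214 CPM in the control, 609, 393 and 487 in vehicle and 438, 239 and 271 in entospletinib, against 23325 in neutrophil-like cells. S100a8 and S100a9 together stood there at 22.6 CPM in the control, 153, 49.0 and 40.9 in vehicle and 182, 28.4 and 46.1 in entospletinib. This pair was thus higher in entospletinib at days 1 and 14. In cDC2-like cells the summed markers stood at 1023 CPM and this pair at 43.0. The source of the summed markers was not tested.

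Because classes were present in different shares, each treatment ratio was also computed with the vehicle shares of the classes, here without centring on the median gene. For Cxcr2 the log2 ratio went from −0.74 to 0.05 at day 1, from −2.79 to −0.17 at day 7 and from −2.53 to −0.98 at day 14. For Cxcl3 it went from −2.42 to −1.76, from −5.01 to −4.51 and from −0.28 to −0.46. The day 7 value of Cxcl3 rests in part on a single neutrophil-like count in entospletinib, and the median gene stood at 0.47 in all kept cells on that day. Cxcl2 went from −0.83 to −0.26, from −3.57 to −2.28 and from −1.32 to −0.63. Cxcl1 went from −3.01 to −2.51 at day 7 and Cxcl16 from 0.68 to 0.12 at day 1. Cxcl12 went from 1.09 to 0.22 at day 1, from 2.33 to 1.72 at day 7 and from 1.31 to 0.62 at day 14. Cxcr4 changed sign at day 7, from −0.40 to 0.38.

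**Figure D4:**
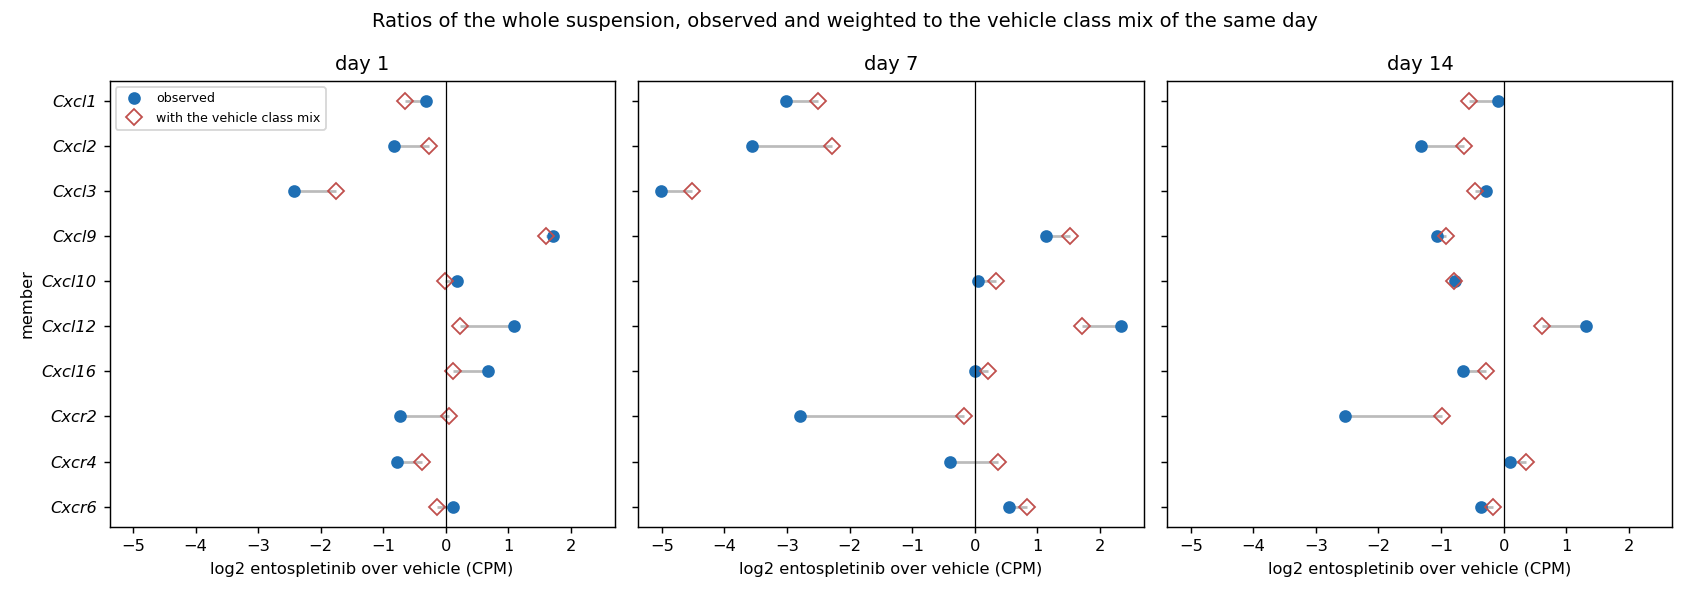
Log2 ratio of CPM in entospletinib over vehicle for each member and day, as observed in all kept cells and as computed with the vehicle shares of the cell classes. For Cxcr2 at day 7 the ratio moved from −2.79 to −0.17, and for Cxcl3 from −5.01 to −4.51.

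Treatment was tested over the 3 days in edgeR's quasi-likelihood test on the 6 injured pools with the day as a block. Its p-values measure how far the treatment difference varied between the 3 same-day pairs of pools. Change over time and differences between pools are not separated in that spread, since no condition had a second pool. In all kept cells, 3 of 10 members passed at a Benjamini-Hochberg adjusted p under 0.05, against 13.8% of 18306 genes. Cxcr2 fell (log2 fold −2.32, SE 0.50, adjusted p = 0.0384 by edgeR), Cxcr4 fell (−0.69, SE 0.17, adjusted p = 0.0481) and Cxcl12 rose (1.22, SE 0.30, adjusted p = 0.04999). Endothelial-cell-like cells, which hold 28.6% of Cxcl12 counts, were 5.68%, 3.26% and 1.95% of cells in vehicle at days 1, 7 and 14 and 12.3%, 19.8% and 9.43% in entospletinib, and proximal-tubule-like cells were 0.982%, 2.26% and 0.563% against 1.16%, 4.01% and 2.78%. Their part in the Cxcl12 result was not tested. For Cxcr4 the same fit gave 0.057 in neutrophil-like cells (adjusted p = 0.999 by edgeR), where its level is highest, and 0.17 in monocyte-like cells (adjusted p = 0.857). Cxcl2 (−2.17, SE 0.62, adjusted p = 0.0691 by edgeR) and Cxcl3 (−3.07, SE 0.86, adjusted p = 0.0649) did not pass, nor did Cxcl1 (−1.38), Cxcl10 (−0.50), Cxcl16 (−0.32), Cxcl9 (0.27) and Cxcr6 (−0.24). The median over members was −0.59, against −0.04 over all genes. With DESeq2 4 passed, Cxcl2 among them (adjusted p = 0.0461). Without the day block 0 passed, as was the case without day 7 and without day 14. Without day 1, 5 passed, but Cxcr4 was not among them (adjusted p = 0.130 by edgeR). Without the ribosomal limit Cxcr2 alone passed, and Cxcr4 did not pass with relative log expression scaling.

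In macrophage-like cells 4 of 9 members passed in edgeR's quasi-likelihood test, all of them lower in entospletinib, against 4.85% of 13467 genes. Cxcl1 fell (−1.05, SE 0.27, adjusted p = 0.0338), Cxcl2 fell (−0.95, SE 0.17, adjusted p = 0.0024), Cxcl3 fell (−1.67, SE 0.29, adjusted p = 0.00214) and Cxcr2 fell (−0.95, SE 0.19, adjusted p = 0.00763). The values of the others were −0.16 for Cxcl10, −0.12 for Cxcl16, 0.04 for Cxcl9, −0.23 for Cxcr4 and −0.17 for Cxcr6, with a median of −0.23 over members and 0.01 over all genes. The summed neutrophil markers of these cells, given above, moved in the same direction, while S100a8 and S100a9 together were lower in entospletinib at day 7 alone. The Cxcl2 and Cxcl3 that could have been carried in, also given above, were not taken off in this fit. The fit was also run on the 11582 of 22031 macrophage-like cells with no count of a neutrophil marker or of Cxcr2. At day 1 they were 677 of 2336 cells in vehicle and 1110 of 2387 in entospletinib. At day 7 they were 757 of 1622 and 1346 of 2210, and at day 14 3153 of 6727 and 2409 of 3111. Since this choice of cells uses Cxcr2, itself lower in entospletinib, a lost call does not decide the source of the counts. In these cells 0 of the 6 members tested passed in edgeR (1 at an unadjusted p under 0.05). There Cxcl2 stood at −0.76 (adjusted p = 0.0834 by edgeR) and Cxcl1 at −0.077 (adjusted p = 0.970), while Cxcl3 and Cxcr2 were not among those tested. Cxcl2 alone passed with a stricter gate, Cxcl3 and Cxcr2 alone with DESeq2, and 0 without the block. Cxcl3 did not pass without day 1, nor Cxcl1 without day 7 or without the ribosomal limit.

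In neutrophil-like cells Cxcl3 fell (log2 fold −2.31, SE 0.43, adjusted p = 1.13e-04 by edgeR's quasi-likelihood test) and was the only member of those tested to pass, against 0.552% of 8876 genes. Its fold was −5.55 without day 1 and −1.5 without day 7, and it did not pass without day 7 or without the block. DESeq2 gave it no adjusted p. Cxcl2 stood at −1.15 (adjusted p = 0.300 by edgeR) and Cxcr2 at −0.34 (0.999), with a median of −1.13 over members and −0.08 over all genes. In monocyte-like cells 0 of 7 passed in edgeR (3 at an unadjusted p under 0.05, and 0 in DESeq2), against 0.0213% of 9385 genes, with Cxcl3 at −2.67 (adjusted p = 0.131 by edgeR). There 2 passed without day 7 and 3 without day 14. In endothelial-cell-like cells 0 of 6 passed in edgeR (1 unadjusted, 0 in DESeq2), against 0.0537% of 11180 genes, and 1 passed without day 1 and 1 without day 14. Whether the treatment difference of a member differed between classes was not tested.

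**Figure D5:**
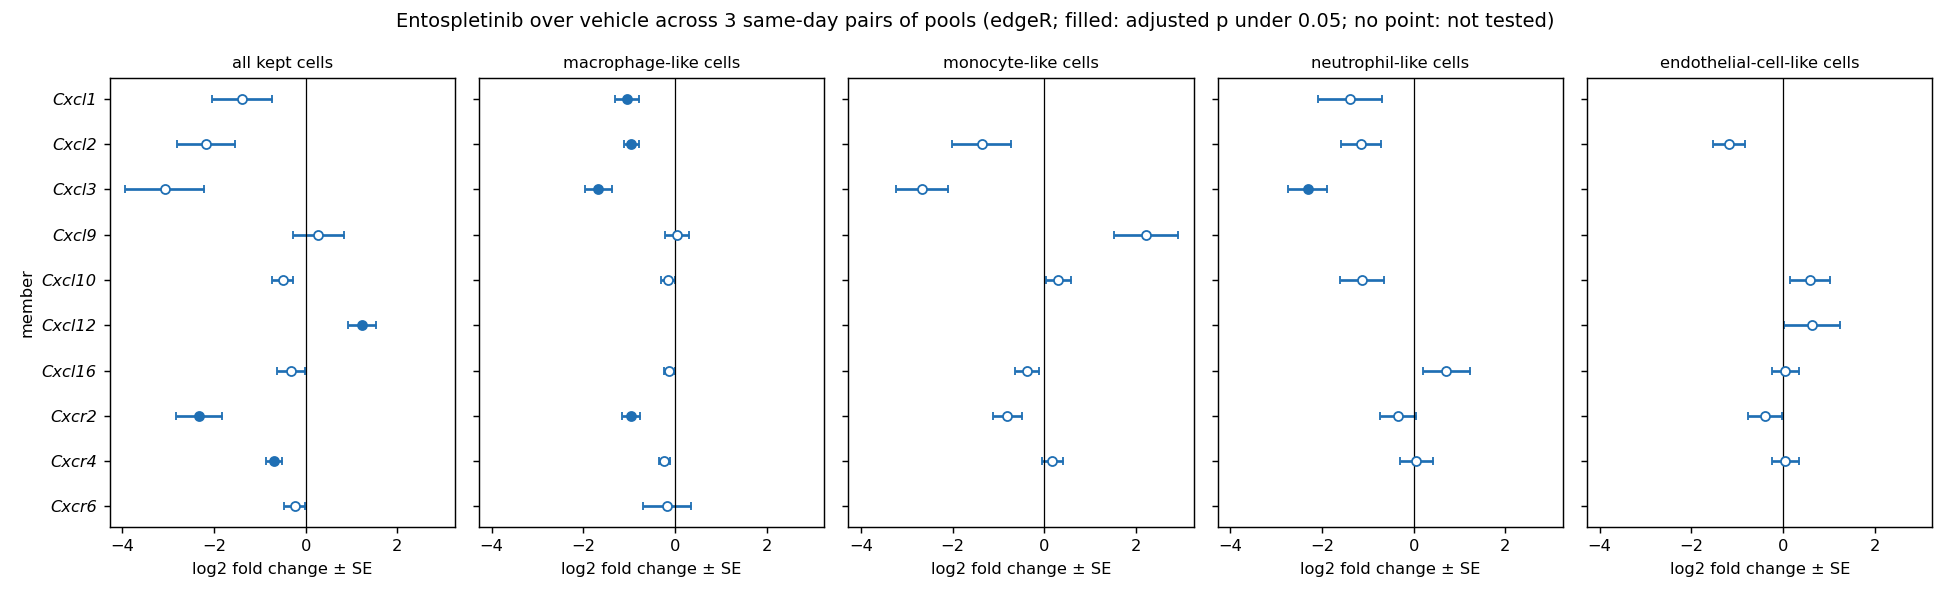
Log2 fold of entospletinib over vehicle across the 3 days (edgeR, with SE) for the members in all kept, macrophage-, monocyte-, neutrophil- and endothelial-cell-like cells, filled where the adjusted p was under 0.05. Cxcl3 was at −1.67 in macrophage-like and −2.31 in neutrophil-like cells, both filled.

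The genes around these members were read in the same edgeR fits, as lists of a pathway. Of 19 NF-kappaB response genes tested in all kept cells, 13 fell and 0 rose (against 13.8% of all genes called), with a median of −1.29, and in macrophage-like cells 13 of 18 fell (against 4.85%), with a median of −0.75. Of the 20 genes listed, 15 had their highest level in neutrophil-like cells. The share of those cells and their summed markers in macrophage-like cells were also lower in entospletinib (S100a8 and S100a9 together at day 7 alone). The part of this in the counts was not tested. Il1b, an inflammatory cytokine, fell in both (−1.63, adjusted p = 0.0281, and −0.63, adjusted p = 0.0142 by edgeR), and so did Ptgs2, which makes prostaglandins (−2.60, adjusted p = 0.0255, and −1.63, adjusted p = 2.52e-05). Nfkbia, the feedback inhibitor of NF-kappaB, fell in both (−1.29, adjusted p = 0.0273, and −0.51, adjusted p = 0.0264 by edgeR), while Nfkbiz fell in all kept cells (−1.01, adjusted p = 0.0264) and stood at −0.43 (adjusted p = 0.0720) in macrophage-like cells. In neutrophil-like cells 2 of 17 fell (against 0.552%), namely Icam1, an adhesion molecule (−1.81), and Il1a (−2.15), and in monocyte-like and endothelial-cell-like cells 0 of 18 and 0 of 16 passed. These 2, like other genes given next in lists with few calls, were named after their values were seen. In all kept cells edgeR called 0 genes of any kind without the block (3796 at an unadjusted p under 0.05). The same held there without day 7 (3942) and without day 14 (3942). Without the block it also called 0 in macrophage-like (738) and neutrophil-like cells (445). The calls of these lists end in those settings too.

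The interferon gamma response includes the inducers of Cxcl9 and Cxcl10. Of 18 genes, 1 fell in all kept cells (Cd274, encoding PD-L1, at −1.23, against 13.8% of all genes called), with a median of −0.14. In macrophage-like cells 1 of 16 rose (Psmb9, 0.56) and 2 fell (Cd274, −0.76, and Gbp7, −0.53), against 4.85% of all genes called. For the lists that follow the share of all genes called is the same, 13.8% in all kept and 4.85% in macrophage-like cells. Among proteases that can shed or cut chemokines, 3 of 7 fell in all kept cells (Adam17, −0.67, Mmp12, −0.67, and Mmp9, −3.02) and 1 of 6 in macrophage-like cells (Mmp9, −2.13, adjusted p = 7.37e-05 by edgeR), and Mmp9 is also a marker of the neutrophil gate. Adam10, the constitutive sheddase of Cxcl16, stood at −0.29 (adjusted p = 0.108 by edgeR). Of 12 genes of receptor coupling, 4 fell in all kept cells (Gnai3, −0.61, Pik3cg, −0.87, Rgs1, −0.66, and Rgs2, −0.60) and 0 in macrophage-like cells. Among 9 further CXC family genes, 2 fell in all kept cells, Cxcr1 (−2.03, adjusted p = 0.0432 by edgeR) and the platelet chemokine Ppbp (−3.12, adjusted p = 0.0367), and Ppbp also fell in macrophage-like (−2.46, adjusted p = 0.00167) and monocyte-like cells (−4.29, adjusted p = 0.0454, against 0.0213% of all genes called). In monocyte-like cells Ppbp did not pass with relative log expression, without the ribosomal limit or with a stricter gate, and in edgeR 0 genes passed there without the block or without day 1 (548 and 436 at an unadjusted p under 0.05).

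The genes with the pattern most like a member across 66 groups of class and condition, among 5721 genes, are given by Pearson's r of log levels, as a description over groups that share libraries. For Cxcr2 they were Hdc (0.97), Mrgpra2b (0.96) and G0s2 (0.96), and for Cxcl2 they were Clec4d, Cd14 and Clec5a (each 0.93). For Cxcl16 they were Arhgap22 (0.95), Igsf9 (0.93) and Slamf9 (0.91), and for Cxcr4 they were Birc3 (0.91), Stk17b (0.91) and Pag1 (0.90). For Cxcr6 they were Cd3g, Cd28 and Trac (each 0.97), of which Cd3g and Trac are gate markers of T cells. For Cxcl3 they were Hilpda (0.87), Gm26756 (0.86) and B230303A05Rik (0.86). The values were lower for Cxcl9 (Gm2629, Mx1 and Batf3, 0.82 to 0.81), Cxcl12 (Mylk, Fgf1 and Erc2, 0.79 to 0.77), Cxcl10 (Ctsb, Sirpa and Metrnl, each 0.77) and Cxcl1 (Fam20c, Inhba and Nrg1, 0.64 to 0.63).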

How the data were processed

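Single-cell RNA-seq was done on kidney cells by the authors with the Parse Evercode kit, their pipeline aligned reads to mm10, and the deposited counts are whole numbers of transcripts, not normalized. The condition of a cell came from the deposited cell table, since each of the 8 deposited samples is a sublibrary with all conditions. The limits on a cell were over 300 genes, under 20000 counts, under 25% mitochondrial and under 1.5% ribosomal protein counts. A class needed at least 2 of its markers, a score of 0.25 or more and a second class at no more than 0.5 of the first. Doublets were not called, but cells that met 2 classes stayed out of every class. Counts were summed per condition and class, and CPM, exact 95% intervals and SDs over sublibraries were computed from the sums. Intervals and floors (3 counts) cover counting error only. Ratios used genes with a mean of 1 CPM (10 within a class) and classes of 100 cells. Per-sublibrary ratios had 0.5 counts added. Fits used edgeR 4.0.16 with TMM scaling and a day block in R 4.3.3, with DESeq2 1.42.0 as an alternative, beside Python 3.11.15. The day pairs vehicle and entospletinib pools by their labels. Tested on simulated data, the all-cell fit recovered 32.5% of 2-fold and 89.3% of 4-fold changes. The simulation gave every gene the same spread between pools (dispersion 0.05) and a changed gene the same fold on each day. Recovery for genes with a larger spread, or with folds that differ by day, was not simulated. Members and lists were chosen with earlier results of these data known. Named were the members, at most 4 genes of highest mean CPM in a list (others in lists with few calls were named after their values were seen) and the 3 genes most alike in pattern. The promoter motifs were set after earlier matches had been seen.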

Additional observations from a re-analysis of the deposited data

Results flagged for a closer look

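In 6 of 70 groups of 8 sublibraries a single sublibrary lay far from the others, and chance gives about 1 in 20. Cxcl1 in entospletinib at day 14 was 17.6 CPM in sublibrary 3 and 1.27 to 5.19 in the others, where a single cell with 18 of 60 counts lay. Cxcl3 in entospletinib at day 7 was 3.65 CPM in sublibrary 7 and 0.972 to 1.95 in the others. Cxcl9 in vehicle at day 7 was 25.8 CPM in sublibrary 4 and 2.56 to 11.2 in the others. Cxcl12 in the control was 3.98 CPM in sublibrary 8 and 0.821 to 2.21 in the others. Cxcr2 in entospletinib at day 7 was 19.0 CPM in sublibrary 7 and 10.3 to 14.1 in the others. Cxcr6 in vehicle at day 7 was 4.72 CPM in sublibrary 3 and 2.18 to 3.08 in the others.

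Between treatments Cxcl16 had relative log2 ratios of 0.56 (day 1), −0.46 (day 7) and −0.90 (day 14), each in 8 of 8 sublibraries, so relative to the median gene the first day went one way and the others the opposite way, and that difference was not tested. Before centring, the day 7 levels were 144 CPM in entospletinib and 143 in vehicle, and the sign on that day comes from the median shift of 0.47. Cxcr2 stood at 384 CPM (exact 95% interval 277 to 520) in the 56 basophil-or-mast-cell-like cells, a class too small for the comparisons.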

How the results depend on the processing

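With 1 pool per condition, sublibraries show technical error alone, and with 6 pools the fits move with a single day. Of 2393 single ratios recomputed, 2321 stayed within 1 SD of their first value and 71 moved further. The 1 counted as reversed was Cxcr2 in neutrophil-like cells at day 14, at 0.66 with a stricter gate in place of −1.28. A change of sign in a ratio within its sublibrary spread was not counted as a reversal. Of 157 member values in fits 113 kept their call, 13 became called, 30 lost it and 1 reversed, namely Cxcr2 in neutrophil-like cells at 0.070 without day 14 (−0.53 to 0.070 over the days left out). Members higher in entospletinib at day 14 numbered 0 in place of 1 with TMM, thinning, no ribosomal limit or no minimum CPM (0 to 1 with a sublibrary left out). At day 7 they numbered 2 when thinned (1 to 2 with a sublibrary left out). Members lower at day 1 numbered 4 with more than 500 genes and 3 without the ribosomal limit, in place of 1. Members lower in vehicle than in the control numbered 1 at day 14 when thinned and 1 to 2 at day 7 with a sublibrary left out. In all, 81 of 828 recomputed counts of members past 2-fold moved, within classes too, among them 13 with a stricter gate (35 did not) and 14 when thinned (46 did not), and 19 of 46 counts of members passing a fit moved. The cause of these moves was not tested.

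Members passing the fits numbered 7 in all kept, 4 in monocyte-like and 1 in endothelial-cell-like cells with no filter on low counts, and 1 in all kept cells without the ribosomal limit. Without the replicate block 0 passed in all kept, macrophage-like and neutrophil-like cells, and so did 0 of 17508 genes in all kept cells (3796 at an unadjusted p under 0.05 in edgeR). In macrophage-like cells 2 passed with DESeq2, 1 with a stricter gate and 0 in cells without a neutrophil marker count, an alternative chosen after seeing the data. In neutrophil-like cells DESeq2 called 0, with no adjusted p for Cxcl3. With a day left out, members passing ranged from 0 to 5 in all kept, 0 to 3 in monocyte-like, 0 to 1 in neutrophil-like and 0 to 1 in endothelial-cell-like cells. Genes passing in all kept cells went from 2534 to 4576 without the filter, 1366 without the ribosomal limit and 0 without day 7 or day 14. In macrophage-like cells they went from 653 to 401 with DESeq2, 424 without the ribosomal limit, 253 with a stricter gate and 170 without marker cells. In monocyte-like cells they went from 2 to 49 with DESeq2, 338 without the filter, 120 without day 7 and 115 without day 14. There they went to 0 with relative log expression, without the block, without day 1, without the ribosomal limit or with a stricter gate. In neutrophil-like cells they went from 49 to 28 without the filter, 121 without the ribosomal limit and 24 with a stricter gate. They went to 9 without day 7, 22 without day 14 and 0 without the block. In endothelial-cell-like cells they went from 6 to 17 with DESeq2, 123 without the filter, 173 without day 1 and 75 without day 14. They went to 2 without day 7, without the ribosomal limit or with a stricter gate, and to 0 without the block.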

Other observations

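Other genes of the CXC family were followed in the same cells. Pf4, a platelet chemokine, had 8275 counts and stood at 4.77 CPM in the control, 70.0, 50.5 and 14.3 in vehicle at days 1, 7 and 14 and 34.6, 13.8 and 13.5 in entospletinib, and was highest in monocyte-like cells (69.9 CPM). Ppbp, also of platelets, stood at 0.237 CPM in the control, 11.9, 4.90 and 0.321 in vehicle and 1.47, 0.319 and 0.422 in entospletinib, and was likewise highest in monocyte-like cells (17.0 CPM). Cxcr3, the receptor of Cxcl9 and Cxcl10, stood at 4.40 CPM in the control, 1.62, 1.67 and 5.09 in vehicle and 1.63, 2.82 and 3.55 in entospletinib, and was highest in T-cell-like cells (38.7 CPM). Its level was lowest on day 1 in entospletinib, and in vehicle it was low and about alike on days 1 and 7.

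Cxcr5, the B cell follicle receptor, had 2066 counts and was highest in B-cell-like cells (229 CPM). Cxcl14 was highest in stroma-like cells (243 CPM), and Ackr3, which scavenges Cxcl12, in proximal-tubule-like cells (17.2 CPM). Cxcr1, with 154 counts, was highest in neutrophil-like cells (6.49 CPM). Cxcl5, Ackr1, Cxcl15 and Cxcl13 had 31, 14, 12 and 8 counts in all kept cells.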
